A study of Homo sapiens with 8 samples.

Results

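The genes described here are 34 zinc-handling genes: 10 zinc exporters of the SLC30 family, 14 zinc importers of the SLC39 family, 9 metallothioneins and MTF1, the zinc-sensing transcription factor of the metallothionein genes. They were taken by name, not by their values, and all 34 were found among 38592 genes in the count table. Their RNA was followed in 21 libraries of islet-like cells made from H1, a human embryonic stem cell line. The cells were WT or carried a knockout of ISL1, of PAX6 or of PDX1, which encode transcription factors of islet cell development. On day 11 of islet differentiation all groups, controls included, received a vector, either ISL1-IRES2-BFP (labelled ISL1 OE) or BFP alone, and all were harvested on day 18. BFP is a blue fluorescent protein. Both WT groups had 2 libraries, as had PDX1 KO with the ISL1 vector, and the other 5 groups had 3. The series' design text calls the libraries biological replicates, and clones are not named, so the p-values measure the spread between these libraries only. Islet-like cultures are mixtures, and in bulk RNA fewer cells of a type and less RNA per cell cannot be told apart.

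Zinc is held inside cells by 2 transporter families that work in opposite directions. SLC30 proteins (ZnT) move zinc out of the cytosol, across the plasma membrane or into organelles, and SLC39 proteins (ZIP) move it into the cytosol. Metallothioneins are small cysteine-rich proteins that bind zinc, copper and cadmium. MTF1 binds metal response elements (MREs) in their promoters when free zinc rises. In beta cells SLC30A8 (ZnT8) fills the insulin granule with the zinc with which insulin is packed; it is also made in other islet endocrine cells.

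Library totals ran from 40959445 to 66818593 estimated counts. ISL1 RNA was lower in ISL1 KO BFP (64.7, 66.0 and 72.0 CPM, counts scaled to library size) than in WT BFP (285 and 484 CPM). In no genotype was ISL1 RNA called higher with the ISL1 vector (log2 fold changes −0.27 to 0.54, adjusted p = 0.341 or above with edgeR). The label was thus not borne out by counts of the ISL1 gene, and whether these include vector RNA is not known. Summed CPM of 6 enterochromaffin-like cell markers was lower with the ISL1 vector in every genotype, without overlap. In WT it was 800 to 932 with BFP and 515 to 542 with the ISL1 vector. The sum of 6 pan-endocrine markers was also lower with the ISL1 vector, without overlap, in WT, ISL1 KO and PDX1 KO. In PAX6 KO that sum overlapped (15690 to 26000 CPM with BFP and 10720 to 24050 CPM with the ISL1 vector). In WT it was 19860 and 24250 CPM with BFP and 15570 and 18520 CPM with the ISL1 vector. The share of all genes without overlap was not counted. PAX6 RNA in PAX6 KO BFP (−0.52 ± 0.43 SE, adjusted p = 0.569) and PDX1 RNA in PDX1 KO BFP (0.25 ± 0.23, adjusted p = 0.572) were not called different from WT; RNA of an edited gene need not be lost. The islet label was met by GCG and INS, the glucagon and insulin genes, at 33910 and 48220 CPM and at 13290 and 10440 CPM in WT BFP, beside a liver gene signal described below. PAX6 KO ISL1 OE replicate 3 and PDX1 KO ISL1 OE replicate 4 stood apart from the other 19 libraries, among these genes too. Results are therefore given for all 21 libraries, and without those 2 where a call or a value changes.

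The metallothioneins lie together on chromosome 16 (GRCh38, chr16:56589074-56684196), where the 9 genes span 95123 bases and MT1G alone is on the minus strand. RefSeq promoter windows (GRCh38.p14, 250 bases before to 50 after the start site) were at hand for 25 of the 34 genes, among them 3 metallothioneins. The 250 bases before the start are printed for MT2A, MT1H and MT1X, whose RNA is followed below, and for the zinc exporter SLC30A1, a textbook target of MTF1. They lie at chr16:56608334-56608583, chr16:56669564-56669813 and chr16:56682220-56682469, on the plus strand, and at chr1:211579162-211579411, on the minus strand. Capitals mark the core of the MRE, TGCACNC or TGCGCNC, found on either strand; no 2 marked cores overlap.
MT2A: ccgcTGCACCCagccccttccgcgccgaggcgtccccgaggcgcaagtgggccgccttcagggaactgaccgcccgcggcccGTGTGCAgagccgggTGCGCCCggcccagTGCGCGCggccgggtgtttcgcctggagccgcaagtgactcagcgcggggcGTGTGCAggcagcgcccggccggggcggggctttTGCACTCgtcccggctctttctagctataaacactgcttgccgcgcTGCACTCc
MT1H: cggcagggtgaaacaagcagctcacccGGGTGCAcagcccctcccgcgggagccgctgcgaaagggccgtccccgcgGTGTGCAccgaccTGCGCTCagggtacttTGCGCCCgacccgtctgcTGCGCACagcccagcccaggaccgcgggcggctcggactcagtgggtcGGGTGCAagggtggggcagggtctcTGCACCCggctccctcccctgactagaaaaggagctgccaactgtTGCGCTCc
MT1X: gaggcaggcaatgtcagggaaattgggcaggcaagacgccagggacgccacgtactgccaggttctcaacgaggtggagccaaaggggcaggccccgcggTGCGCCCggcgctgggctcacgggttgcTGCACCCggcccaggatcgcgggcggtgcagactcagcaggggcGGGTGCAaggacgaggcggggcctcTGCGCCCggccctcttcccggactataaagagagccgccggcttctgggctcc
SLC30A1: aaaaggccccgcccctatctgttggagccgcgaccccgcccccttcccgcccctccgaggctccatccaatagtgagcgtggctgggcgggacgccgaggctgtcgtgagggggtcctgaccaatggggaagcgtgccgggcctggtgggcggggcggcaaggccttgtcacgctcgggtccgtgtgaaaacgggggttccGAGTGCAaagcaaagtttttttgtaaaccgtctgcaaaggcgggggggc
In the 300-base windows MT2A and MT1H held 8 cores each and MT1X held 4, against 2 in SLC30A1. At least 4 cores were present in 0.6% of 27305 RefSeq promoters of the same length, and at least 1 in 29.3%. By this search 5 of 9 SLC30 promoters, 2 of 12 SLC39 promoters and not that of MTF1 held 1 core or more. MT1G, MT1F and MT1E, which also feature in the results, have no entry in this table.

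**Figure D1:**
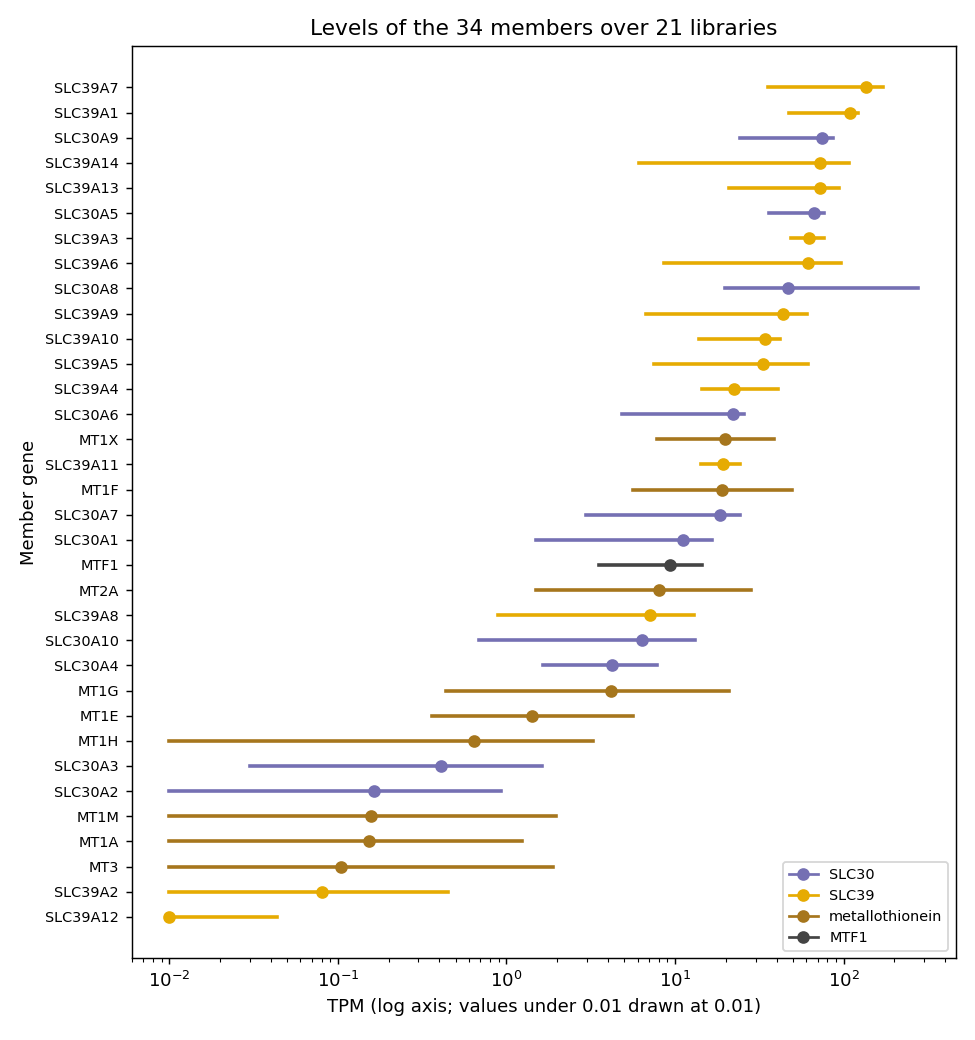
Level of each of the 34 genes over all 21 libraries in TPM, on a log axis; points are medians, lines run from the lowest to the highest library and colours mark the families. SLC39A7, SLC39A1 and SLC30A9 are at the top, 7 of 9 metallothioneins are below 10 TPM at the median, and SLC30A8 runs from 19.7 to 276.1 TPM.

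Zinc importers gave most of the RNA of the set. On the TPM scale, which is corrected for transcript length and so allows genes to be compared, 11 of 14 SLC39 genes, 6 of 10 SLC30 genes and 2 of 9 metallothioneins had medians above 10. The highest was SLC39A7, which releases zinc from the endoplasmic reticulum, at a median of 134.8 TPM (35.7 to 170.0). SLC39A1, an importer of the plasma membrane, followed at 108.4 TPM (47.4 to 121.2) and SLC30A9, a mitochondrial zinc exporter, at 74.8 TPM (24.4 to 86.4). The ranges of neighbours in this order overlapped. SLC30A8 was ninth by median, at 46.5 TPM, but spanned 19.7 to 276.1 TPM. It was above every other SLC30 gene in WT BFP (161.4 and 177.9 TPM) and WT ISL1 OE (194.3 and 276.1 TPM). The same held in PDX1 KO BFP (88.4 to 96.4 TPM). MT1X (19.8 TPM), MT1F (19.1 TPM) and MT2A (8.01 TPM) were the highest metallothioneins, while MT1A, MT1M and MT3 stayed at medians below 0.2 TPM. SLC39A12, a transporter known from brain, had counts in 4 libraries and at most 3 of them. With MT1A, MT1M and MT3 it failed the filter on low counts, so 30 of the 34 genes were tested.

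SLC30A8 was the one gene of the set called lower than WT in all 3 knockouts, with either vector. In WT BFP it stood at 349 and 408 CPM. ISL1 KO BFP had 43.9, 56.0 and 62.9 CPM, and PAX6 KO BFP had 56.2, 31.7 and 43.9 CPM. PDX1 KO BFP lay between, at 171, 160 and 167 CPM. No library of any knockout reached the lowest WT library. With edgeR's quasi-likelihood test, SLC30A8 fell by 2.80 ± 0.27 (log2, SE; adjusted p = 1.07e-05) in ISL1 KO and by 3.11 ± 0.27 (adjusted p = 7.55e-06) in PAX6 KO. In PDX1 KO it fell by 1.19 ± 0.26 (adjusted p = 0.0073), a 2.28-fold difference. The 3 comparisons share the 2 WT libraries. Leaving out any one library kept the first 2 calls, whereas without WT BFP replicate 3 the adjusted p for PDX1 KO was 0.0765.

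**Figure D2:**
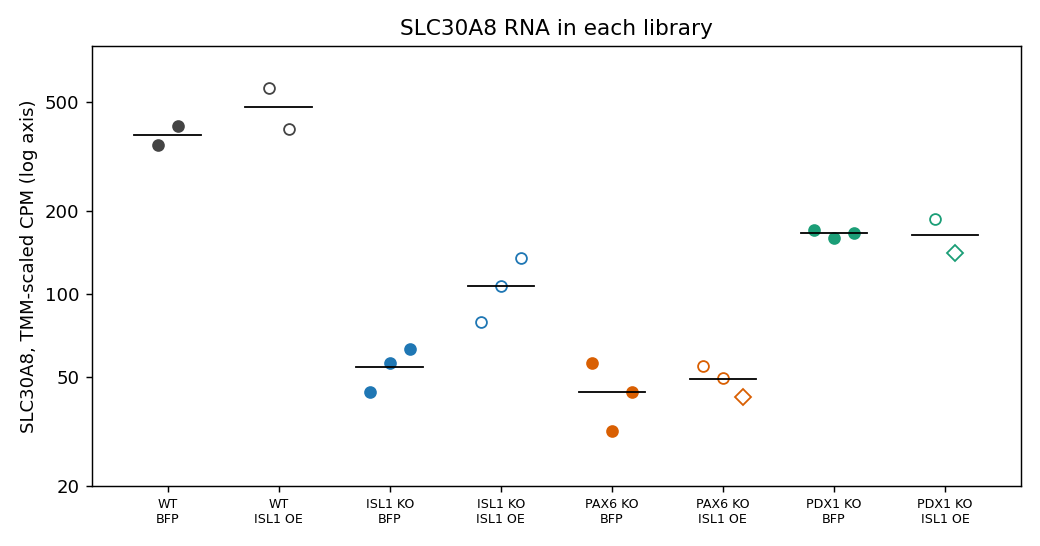
SLC30A8 RNA in each library in TMM-scaled CPM, on a log axis; filled points are BFP, open points ISL1 OE, diamonds the 2 libraries that stood apart and bars group means. The 4 WT libraries lie between 349 and 563 CPM, PDX1 KO between 140 and 188 CPM, and both other knockouts at or below 135 CPM.

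The knockouts also differed from each other. SLC30A8 was 3.06-fold higher in PDX1 KO BFP than in ISL1 KO BFP (1.61 ± 0.24, adjusted p = 0.000945) and 3.78-fold higher than in PAX6 KO BFP (1.92 ± 0.25, adjusted p = 0.000241); both calls held without each library in turn. Between PAX6 KO and ISL1 KO no difference was called (−0.30 ± 0.24, 95% interval −0.77 to 0.16, adjusted p = 0.815). The hormone genes ran in other orders. GCG was 13760 to 17810 CPM in PDX1 KO BFP but at most 86.5 CPM in ISL1 KO BFP and 72.1 CPM in PAX6 KO BFP, while INS was 173 to 371 CPM in PDX1 KO BFP, 3320 to 4772 CPM in ISL1 KO BFP and 1230 to 1818 CPM in PAX6 KO BFP. Hence the knockout with the lowest INS had the highest SLC30A8 of the 3. The summed CPM of 7 alpha cell markers was 14430 to 18410 in PDX1 KO BFP, 485 to 695 in ISL1 KO BFP and 655 to 749 in PAX6 KO BFP, against 36130 to 50490 in WT BFP; none of the 7 was at 0 in any of these libraries. For 7 beta cell markers the sums were 645 to 818, 3678 to 5117, 1487 to 2112 and 11970 to 14450 CPM, with at most 1 marker at 0, in PAX6 KO. The part of these cell types in the SLC30A8 differences was not tested.

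With the ISL1 vector the order of the genotypes was the same. WT ISL1 OE had 563 and 399 CPM, ISL1 KO ISL1 OE 79.1, 107 and 135 CPM, PAX6 KO ISL1 OE 54.5, 49.5 and 42.3 CPM and PDX1 KO ISL1 OE 188 and 140 CPM. Again no knockout library reached the WT libraries. SLC30A8 fell by 2.17 ± 0.27 in ISL1 KO (adjusted p = 0.000232), by 3.30 ± 0.27 in PAX6 KO (adjusted p = 4.81e-06) and by 1.55 ± 0.30 in PDX1 KO (adjusted p = 0.0265). The PDX1 KO call was lost when either WT ISL1 OE library or PDX1 KO ISL1 OE replicate 4 was left out one at a time. It was also lost in the fit of those 2 groups alone (adjusted p = 0.913). With both outlying libraries out of the fit the PDX1 KO difference was −1.36. That fit leaves 1 library in PDX1 KO ISL1 OE, so only the size is given. Of the vector effects within a genotype, that in ISL1 KO was the largest, 0.98 ± 0.24 (adjusted p = 0.102), with every ISL1 OE library above every BFP library. It passed with a replicate block over all groups (0.975 ± 0.23, adjusted p = 0.0392) though not with one kept to ISL1 KO and PAX6 KO (0.96 ± 0.20, adjusted p = 0.0645). DESeq2 called it (adjusted p = 0.00592), and without the 2 outlying libraries it was 0.99 ± 0.21 and passed (adjusted p = 0.00901). Its difference from the vector effect in WT (0.63 ± 0.38) had adjusted p = 1 with all libraries, so it is not shown to be particular to ISL1 KO.

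PAX6 KO differed from the other genotypes in which SLC30A8 transcripts were present. The annotation (GENCODE 29) lists 4 SLC30A8 transcripts with an upstream start and 5 with a start 184 kilobases downstream on chromosome 8. In WT BFP the upstream-start transcripts held 23% and 25% of the SLC30A8 transcript TPM. In PAX6 KO BFP they held 46.3%, 49.2% and 52.5%. ISL1 KO BFP, with a like loss of total SLC30A8, had 20.7%, 20.6% and 21.6%, and PDX1 KO BFP had 26.8%, 33.3% and 28.3%. Every PAX6 KO BFP library was thus above every other BFP library.

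Expressed as levels, downstream-start RNA was 129 ± 6.45 TPM (SD, n = 2) in WT BFP and 12.8 ± 3.61 TPM (n = 3) in PAX6 KO BFP, a 10.1-fold ratio of means. Upstream-start RNA was 40.8 ± 5.19 and 12.3 ± 2.48 TPM, a 3.31-fold ratio. In ISL1 KO BFP the ratios were 5.19 and 6.18. The transcript SLC30A8-203, which starts downstream and has a frame of 36 codons, gave the sharpest contrast with BFP. It held 0.55% to 1.13% of SLC30A8 TPM in PAX6 KO BFP, against 25.7% to 27.6% in WT BFP and 29.3% to 33.7% in ISL1 KO BFP. With the ISL1 vector the contrast was smaller, at 9.19% to 17.27% in PAX6 KO and 27.75% to 28.76% in WT. SLC30A8-202, another downstream-start transcript, with a reading frame of 369 codons, held 4.12% to 8.87% in PAX6 KO BFP against 21.7% to 25.7% in WT BFP. With the ISL1 vector it held 15.5% to 18.04% in PAX6 KO and 20.19% to 20.25% in WT. SLC30A8-205, which joins the same first and second exons as 203 and has a frame of 320 codons, went the other way, with 38.2% to 43.1% in PAX6 KO BFP and 23.2% to 27.6% in WT BFP. With the ISL1 vector the 205 shares overlapped, at 8.52% to 37.18% in PAX6 KO and 28.54% to 31.53% in WT. With the ISL1 vector, PAX6 KO had upstream shares of 37.3%, 33.5% and 62.4% and WT had 19.7% and 21.5%; the 62.4% belongs to the PAX6 KO library that stood apart, and PDX1 KO ISL1 OE replicate 4, the other such library, had 43.7% against 24.5% in its partner. The division into 2 starts was chosen after these values were seen, it rests on the authors' estimates for overlapping transcripts, and no test was made.

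**Figure D3:**
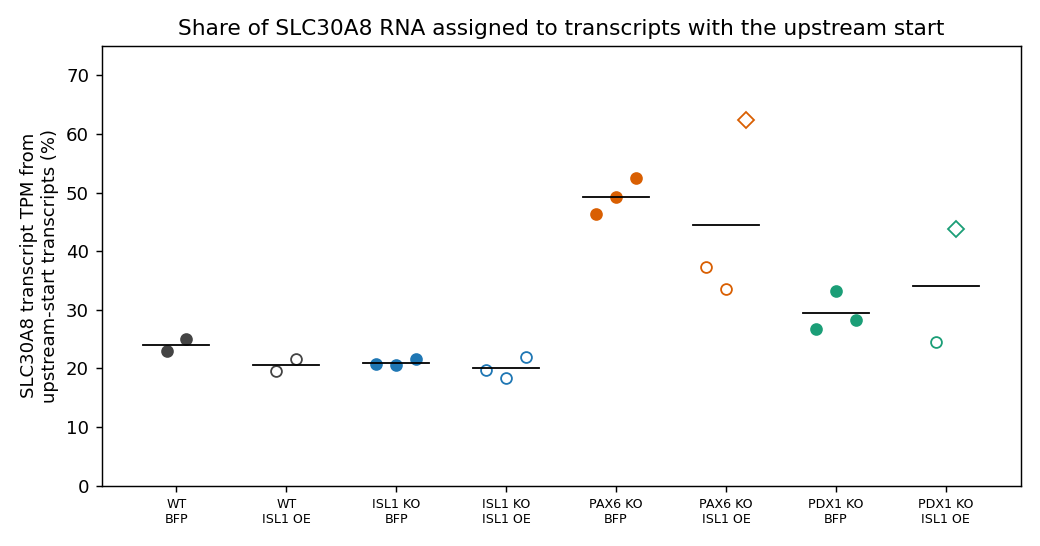
Share of SLC30A8 transcript TPM, in percent, assigned to transcripts with the upstream start, for each library; filled points are BFP, open points ISL1 OE, diamonds the 2 libraries that stood apart and bars group means. PAX6 KO BFP lies at 46.3% to 52.5% and the other BFP groups at 20.6% to 33.3%.

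Counting SLC30A8, few of the 30 tested genes passed the test in a knockout with the BFP vector. In ISL1 KO 2 fell and 0 rose, where 6.53% of all 22184 tested genes were called (4.48% lower and 2.05% higher). In PAX6 KO 5 fell and 1 rose, with 6.65% of all genes called (4.25% lower and 2.41% higher). In PDX1 KO 3 fell and 1 rose, with 11.4% of all genes called (6.84% lower and 4.56% higher). The median log2 fold change of the tested members was −0.41, −0.46 and −0.37, against 0.03, 0.00 and 0.02 over all genes, and 22, 23 and 21 of the 30 were below 0. Without the 2 outlying libraries, which belong to neither side of these comparisons but raise the spread shared by all groups, 14, 13 and 11 of 31 tested members were lower and 1, 1 and 3 higher. The shares of all genes called then, in either direction, were 28.5%, 28.8% and 33.3%. In that fit 6 members were lower in all 3 knockouts, namely SLC30A8, SLC30A5, SLC39A1, SLC39A5, SLC39A8 and MT1G, and MT1F was higher in all 3. The share of all genes called in the same direction in all 3 was not counted, and the 3 comparisons share the WT BFP libraries. Shared calls are therefore not shown to be particular to these genes.

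**Figure D4:**
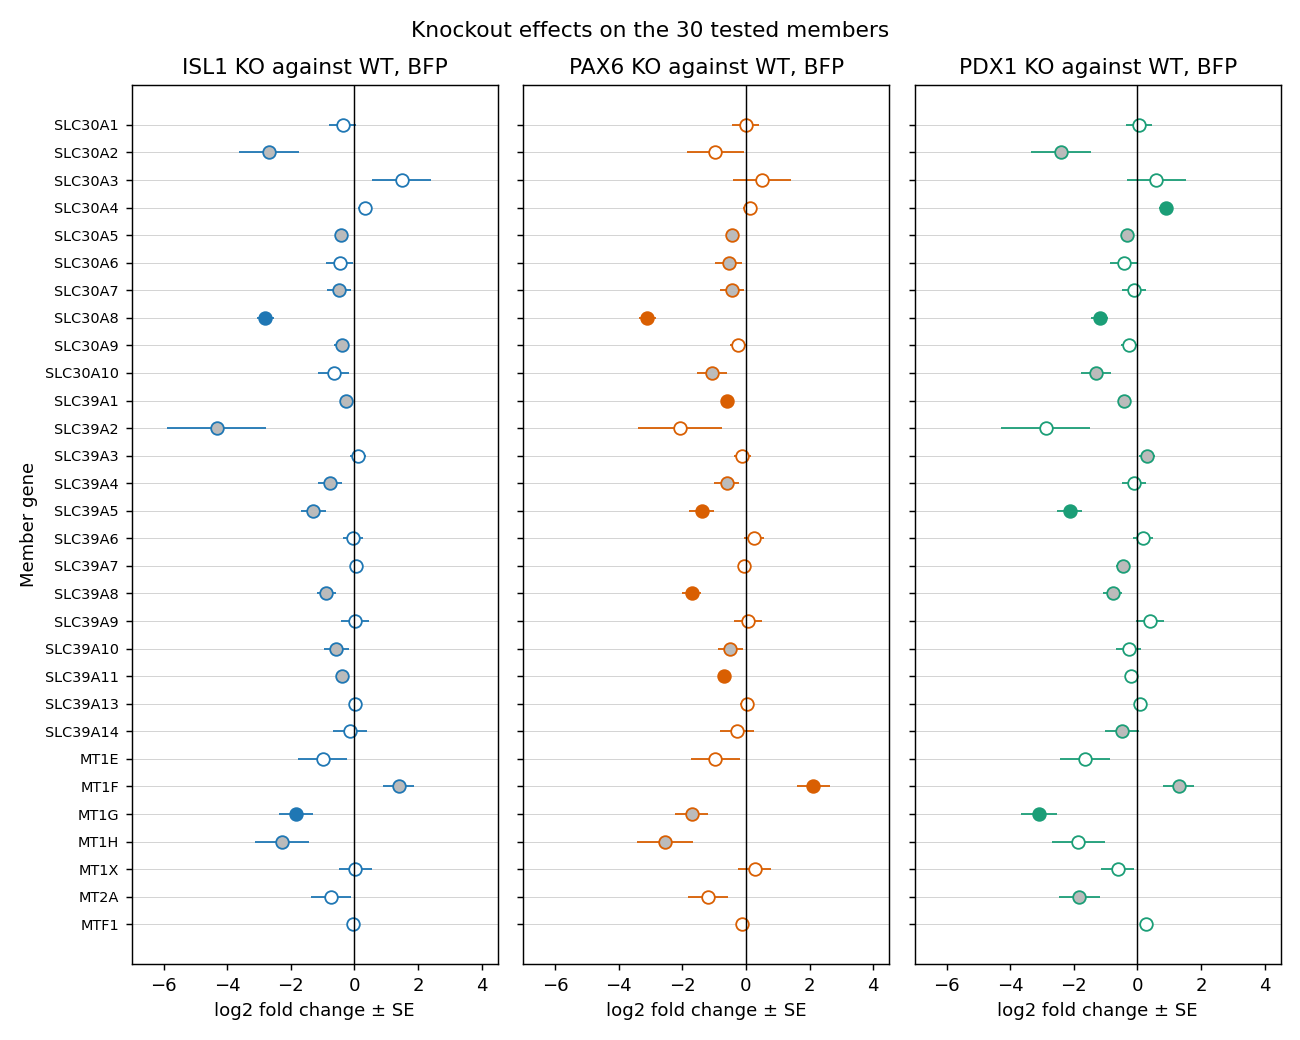
Log2 fold change ± SE against WT BFP for the 30 tested members in each knockout with the BFP vector, all 21 libraries in the fit; coloured points passed at an adjusted p under 0.05, grey points passed only without the 2 outlying libraries and white points in neither fit. SLC30A8 is coloured in all 3 panels, and most other effects lie within 1 log2 unit of 0.

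Among the other SLC30 genes, which export zinc from the cytosol, SLC30A4 moved the opposite way in PDX1 KO. SLC30A4 (ZnT4), a transporter of endosomal vesicles, had 12.4 and 14.01 CPM in WT BFP and 21.5, 25.6 and 26.7 CPM in PDX1 KO BFP. All PDX1 KO BFP libraries were above every other library of the study. It rose by 0.90 ± 0.23 (adjusted p = 0.0185) against WT and by 0.77 ± 0.20 (adjusted p = 0.0443) against PAX6 KO. The first call was lost without either WT BFP library or PDX1 KO BFP replicate 3, and the second without any one library or with the replicate block kept to ISL1 KO and PAX6 KO (adjusted p = 0.0559); with the 2 outlying libraries out of the fit they were 0.88 ± 0.16 (adjusted p = 0.000387) and 0.74 ± 0.14 (adjusted p = 0.00121). In PDX1 KO ISL1 OE it was 17.2 and 9.57 CPM, lower than with BFP (−0.88 ± 0.23, adjusted p = 0.0202), but −0.48 without replicate 4 of that group, and not called (adjusted p = 0.327). Of 6 enterochromaffin-like cell markers 6 were called higher in PDX1 KO BFP, where 4.56% of all genes were. Their summed CPM was at most 932 in WT BFP, 3462 to 3977 in PDX1 KO BFP and 1217 and 1260 in PDX1 KO ISL1 OE. It was 2157 to 2910 in ISL1 KO BFP and 1249 to 1965 in PAX6 KO BFP, none of the markers was at 0, and its part in the SLC30A4 and SLC30A8 differences was not tested. The sum of 6 pan-endocrine markers was also highest in PDX1 KO BFP, at 43870 to 47240 CPM. It was 19860 and 24250 CPM in WT BFP, 24160 to 33140 CPM in ISL1 KO BFP and 15690 to 26000 CPM in PAX6 KO BFP. In PDX1 KO ISL1 OE it was 21220 and 23920 CPM, and its part was not tested either.

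SLC30A2 (ZnT2), a vesicular transporter known from secretory glands, was near the limit of counting. It had 1.36 and 1.42 CPM in WT ISL1 OE (73 and 76 counts) and 0, 0.121 and 0.0331 CPM in ISL1 KO ISL1 OE (0, 8 and 2 counts), a fitted difference of −4.67 ± 1.05 (adjusted p = 0.0183) that was kept in 1 of 5 fits without 1 library. WT BFP itself had 2.08 and 0.165 CPM, so the WT BFP libraries covered most of the range over all groups. The comparison had 2 calls among the tested members, SLC30A2 and SLC30A8, where 4.13% of all genes were called.

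SLC30A5, SLC30A6 and SLC30A7, which load zinc into the early secretory pathway for zinc-dependent enzymes, and SLC30A9 had log2 fold changes between −0.55 and −0.10 in the 3 BFP comparisons and were not called with all libraries. SLC30A5 passed without the 2 outlying libraries in ISL1 KO, PAX6 KO and PDX1 KO, at −0.43 ± 0.10, −0.43 ± 0.10 and −0.34 ± 0.10 (adjusted p = 0.00528, 0.00522 and 0.0196). In that fit SLC30A7 also passed in ISL1 KO and PAX6 KO (−0.49 ± 0.15 and −0.43 ± 0.15), SLC30A9 in ISL1 KO (−0.40 ± 0.11) and SLC30A6 in PAX6 KO (−0.54 ± 0.18), with adjusted p from 0.0135 to 0.0456. SLC30A10, a manganese exporter of liver and gut, was at 48.2 and 32.7 CPM in WT BFP, at 18.1, 26.5 and 13.7 CPM in PAX6 KO BFP and at 19.3, 15.2 and 14.8 CPM in PDX1 KO BFP. It passed only without the 2 outlying libraries, at −1.05 ± 0.29 (adjusted p = 0.0118) in PAX6 KO and −1.32 ± 0.29 (adjusted p = 0.00213) in PDX1 KO. SLC30A1 (ZnT1), the exporter of the plasma membrane, had 47.8 and 39.9 CPM in WT BFP and 30.5 to 53.7 CPM over the 9 knockout BFP libraries. It was called in none of these 3 comparisons in either fit. SLC30A3, a transporter of synaptic vesicles, stayed at or below 1.82 CPM throughout.

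Of the SLC39 genes, which bring zinc into the cytosol, 4 fell in PAX6 KO. SLC39A8 (ZIP8), which also carries manganese, had 27.7 and 20.02 CPM in WT BFP and 6.09, 7.54 and 8.44 CPM in PAX6 KO BFP. WT ISL1 OE had 21.0 and 18.97 CPM, against 5.82, 7.54 and 2.70 CPM in PAX6 KO ISL1 OE. The PAX6 KO libraries were the 6 lowest of the study for this gene. It fell by 1.70 ± 0.30 (adjusted p = 0.00292) with BFP and by 1.90 ± 0.30 (adjusted p = 0.00152) with the ISL1 vector. The second call held without each library in turn but not in the fit of those 2 groups alone (adjusted p = 0.221), and the first was lost only without WT BFP replicate 1 (adjusted p = 0.0645). ISL1 KO BFP (11.8, 14.1 and 13.1 CPM) and PDX1 KO BFP (13.9, 12.04 and 15.8 CPM) were also below both WT BFP libraries and passed without the 2 outlying libraries, at −0.89 ± 0.17 (adjusted p = 0.0012) and −0.80 ± 0.17 (adjusted p = 0.00198). In that fit SLC39A8 was lower in PAX6 KO than in ISL1 KO (−0.80 ± 0.16, adjusted p = 0.00316) and than in PDX1 KO, where it was 0.89 ± 0.16 higher (adjusted p = 0.001).

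SLC39A11 (ZIP11), an importer described in the Golgi, had 22.3 and 19.2 CPM in WT BFP and 13.8, 12.8 and 11.7 CPM in PAX6 KO BFP. It fell by 0.70 ± 0.15 (adjusted p = 0.0115) with BFP and by 0.58 ± 0.15 (adjusted p = 0.0388) with the ISL1 vector, where WT had 23.7 and 24.5 CPM and PAX6 KO 16.7, 15.4 and 16.2 CPM. The groups did not overlap with either vector. SLC39A1 had 165 and 151 CPM in WT BFP and 97.6, 113.4 and 101 CPM in PAX6 KO BFP (−0.60 ± 0.15, adjusted p = 0.0222). It shares 93.7% of the 50-base windows of its main transcript with a readthrough gene, AL358472.7, so its count is uncertain. The BFP call of SLC39A11 was lost without 3 of 5 libraries and that of SLC39A1 without 4 of 5; the SLC39A11 call with the ISL1 vector was kept in 1 of 5 and lost with that replicate block (adjusted p = 0.0516). All 3 calls were lost with library size scaling, where SLC39A1 with BFP was −0.37 ± 0.18 (adjusted p = 0.258). With the ISL1 vector 3 members fell in PAX6 KO and 0 rose (4.26% of all genes called).

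SLC39A5 (ZIP5), an importer of the basolateral membrane of liver, gut and pancreas, was lower in PAX6 KO and PDX1 KO. It had 66.7 and 59.7 CPM in WT BFP, 15.7, 31.7 and 24.7 CPM in PAX6 KO BFP and 20.5, 10.8 and 12.1 CPM in PDX1 KO BFP. Both knockouts lay below WT without overlap. It fell by 1.40 ± 0.39 (adjusted p = 0.0405) in PAX6 KO, a call kept in 1 of 5 fits without 1 library, and by 2.12 ± 0.39 (adjusted p = 0.00252) in PDX1 KO, kept in all 5. In ISL1 KO it was 29.98, 26.6 and 21.1 CPM, just short of the threshold (−1.29 ± 0.39, adjusted p = 0.0583), and passed without the 2 outlying libraries (−1.30 ± 0.27, adjusted p = 0.00206). The summed CPM of 12 liver markers (ALB, AFP and others) moved the same way: 21110 and 24020 in the WT BFP libraries, 8561 to 12290 in ISL1 KO BFP, 6696 to 9513 in PAX6 KO BFP and 5127 to 5837 in PDX1 KO BFP, with none of the 12 at 0. Of these markers 6, 9 and 11 of 12 were called lower in the 3 knockouts, where 4.48%, 4.25% and 6.84% of all genes were. Their part in the SLC39A5 and metallothionein results was not tested.

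Few calls were made among the other SLC39 genes. SLC39A7, SLC39A13, which works in the early secretory pathway, SLC39A14, an importer that also carries iron and manganese, SLC39A9, SLC39A6 and SLC39A3 had log2 fold changes between −0.48 and 0.39 in the 3 BFP comparisons, with no call in all libraries. In the fit of 19 libraries 3 of them passed in PDX1 KO: SLC39A3 was higher (0.28 ± 0.10, adjusted p = 0.0352), and SLC39A7 (−0.47 ± 0.11, adjusted p = 0.00273) and SLC39A14 (−0.50 ± 0.18, adjusted p = 0.0413) were lower. SLC39A10, an importer of the plasma membrane, was at −0.56, −0.49 and −0.28; it passed in ISL1 KO and PAX6 KO without the 2 outlying libraries (−0.57 ± 0.15 and −0.48 ± 0.15, adjusted p = 0.00948 and 0.0252). SLC39A4, the importer of intestinal zinc uptake, had 10.9 and 8.98 CPM in WT BFP and 4.91 to 7.502 CPM in the ISL1 KO and PAX6 KO BFP libraries. It passed in both only without the outlying libraries (−0.78 ± 0.16 and −0.60 ± 0.16; adjusted p = 0.00213 and 0.0111). SLC39A2 had at most 25 counts in any library and SLC39A12 at most 3.

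Metallothionein RNA was low in CPM, though MT1X and MT1F had median levels of 19.8 and 19.1 TPM. The metallothioneins did not move as a block in the knockouts. MT1G had 1.69 and 1.21 CPM in WT BFP (85 and 44 counts). In PDX1 KO BFP it had 0.147, 0.252 and 0.1 CPM (8, 16 and 5 counts), in ISL1 KO BFP 0.437, 0.353 and 0.416 CPM and in PAX6 KO BFP 0.278, 0.825 and 0.218 CPM. None of these 9 libraries reached either WT library. MT1G fell by 3.09 ± 0.57 (adjusted p = 0.00238) in PDX1 KO, a call that held without each library in turn. In ISL1 KO it fell by 1.85 ± 0.53 (adjusted p = 0.0466), which was lost without any one library and with the replicate block kept to ISL1 KO and PAX6 KO (adjusted p = 0.051), and in PAX6 KO −1.71 ± 0.53 did not pass (adjusted p = 0.0625).

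MT1F went the other way. WT BFP had 1.25 and 1.21 CPM, the lowest values of the study, and PAX6 KO BFP had 5.70, 4.85 and 5.54 CPM. ISL1 KO BFP had 3.44, 2.89 and 3.33 CPM and PDX1 KO BFP 3.16, 3.73 and 2.16 CPM, so every knockout library was above both WT libraries. MT1F rose by 2.12 ± 0.51 (adjusted p = 0.0191) in PAX6 KO, a call lost without any of 4 of the 5 libraries. In ISL1 KO 1.39 ± 0.49 and in PDX1 KO 1.29 ± 0.49 did not pass (adjusted p = 0.108 and 0.103). Without the 2 outlying libraries the 3 values were 2.13 ± 0.25, 1.38 ± 0.24 and 1.28 ± 0.24, all called (adjusted p = 1.15e-05, 0.000539 and 0.000731), and PAX6 KO was above ISL1 KO (0.75 ± 0.20, adjusted p = 0.0214) and above PDX1 KO (which was −0.86 ± 0.20 against it, adjusted p = 0.00631). In WT ISL1 OE MT1F was 2.01 and 2.13 CPM.

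MT1X had 3.81 and 1.57 CPM in WT BFP and 1.10 to 3.69 CPM in the knockout BFP libraries, and MT2A had 2.30 and 1.15 CPM against 0.2 to 1.33 CPM; neither was called with all libraries. MT2A passed in PDX1 KO without the outlying libraries (−1.84 ± 0.50, adjusted p = 0.00925). MTF1 RNA stayed between 16.9 and 35.5 CPM in every library and was called in no knockout against WT with either vector, the largest difference being 0.27 ± 0.19. Family members share sequence: 45.1% of the 50-base windows of MT1X, 20.4% of MT1H and 20.2% of MT1G, but 3.6% of MT1F, 4.9% of MT2A and 5.3% of MT1E, occur in another gene, so the counts of the first 3 are uncertain.

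**Figure D5:**
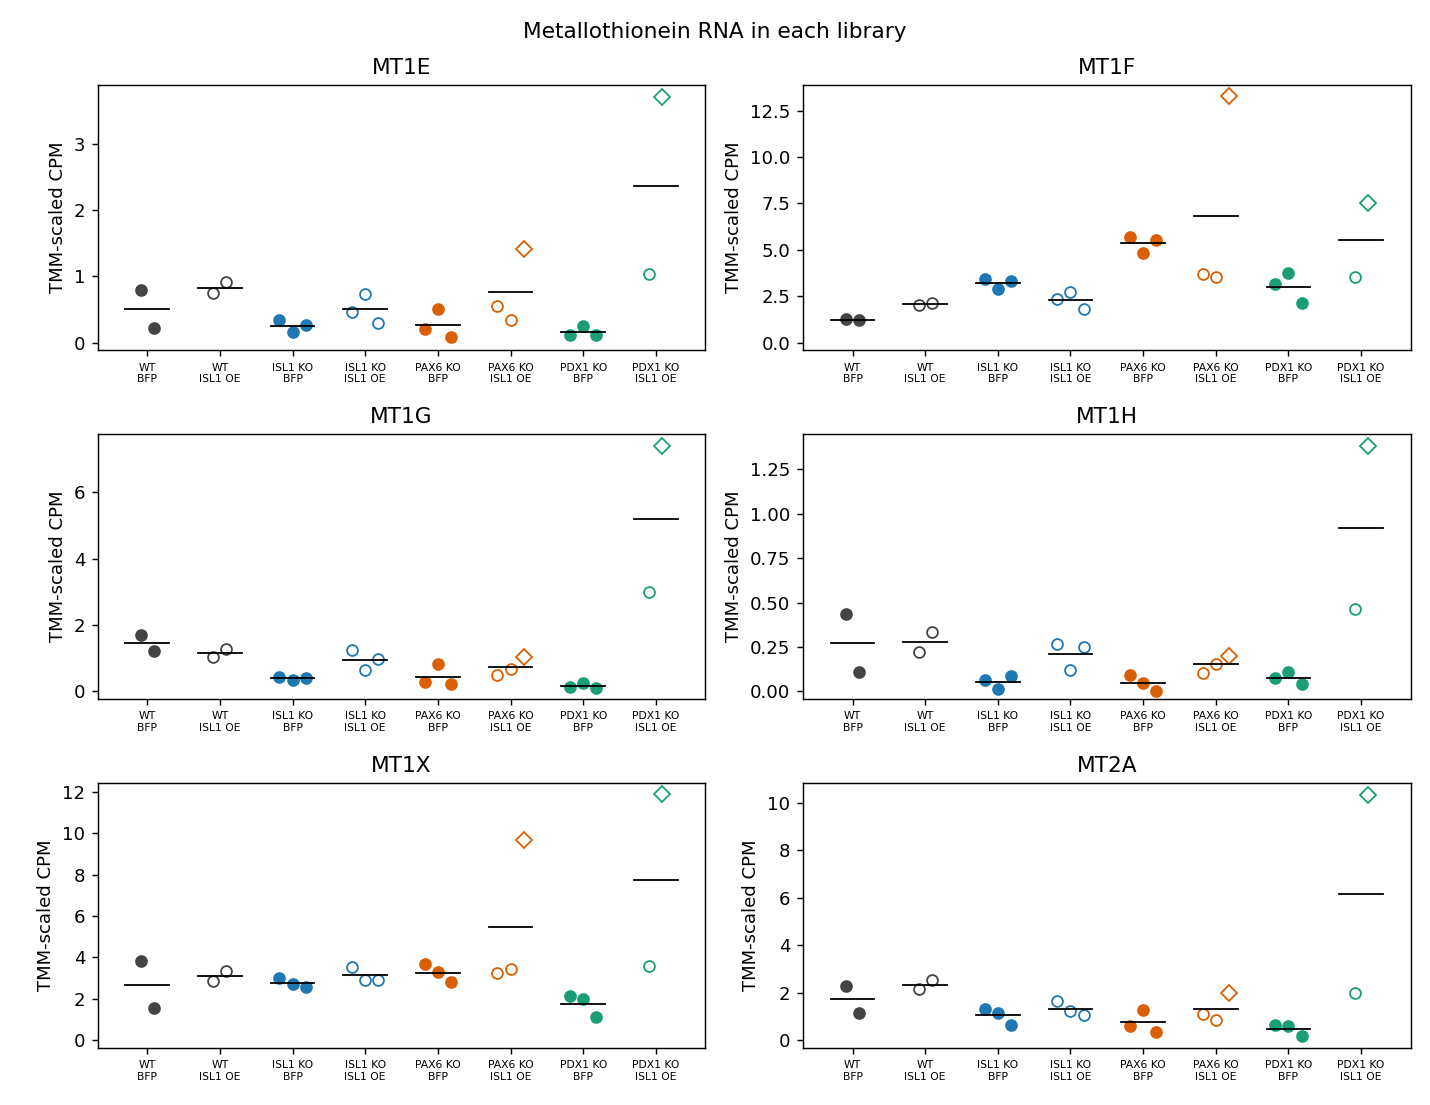
RNA of the 6 tested metallothioneins in each library in TMM-scaled CPM, on a linear axis that differs between panels; filled points are BFP, open points ISL1 OE, diamonds the 2 libraries that stood apart and bars group means. PDX1 KO ISL1 OE is above PDX1 KO BFP for MT1E, MT1G, MT1H, MT1X and MT2A, and its diamond is the highest point of the panel in all of these 5.

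With the ISL1 vector against BFP, 9 of the 30 tested members were called in PDX1 KO and 21 were not. There were 0 called members in WT, ISL1 KO and PAX6 KO with edgeR, where 0.0361%, 0.424% and 0.415% of all genes were called; at an unadjusted p under 0.05 there were 0, 4 and 2, and DESeq2 called 0, 1 and 1. In ISL1 KO 2 were called without the 2 outlying libraries, SLC30A8 higher and SLC30A4 lower. In PDX1 KO 7 members rose and 2 fell, where 14.4% of all genes were called (9.09% higher and 5.34% lower). Those that rose were 5 metallothioneins and the importers SLC39A5 and SLC39A4; SLC30A4 and MTF1 fell. Without the 2 outlying libraries PDX1 KO ISL1 OE held 1 library, so no count is given for that fit. In a fit of the PDX1 KO groups alone, with 5 libraries, none of the 9 passed (adjusted p = 0.203 for MT1G and up to 0.363 for MTF1), nor did any of the 20006 genes tested there.

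MT1G rose from 0.147, 0.252 and 0.1 CPM in PDX1 KO BFP to 2.99 and 7.39 CPM in PDX1 KO ISL1 OE, by 4.92 ± 0.58 (adjusted p = 0.000115). The MT1G call held without each library in turn, but not in the fit of the 2 groups alone (4.97 ± 0.63, adjusted p = 0.203). Without replicate 2 or 4 the vector group holds 1 library, and its spread is taken from the other groups. Without both outlying libraries the rise of MT1G was 4.15, given as a size only. MT2A rose from 0.66, 0.598 and 0.2 CPM to 1.99 and 10.3 CPM (3.65 ± 0.66, adjusted p = 0.00268). MT1E rose from 0.11, 0.252 and 0.12 CPM to 1.04 and 3.71 CPM (3.84 ± 0.78, adjusted p = 0.00512). In both, replicate 4 was the highest library of the study, and leaving out that library alone ended the call. Without both outlying libraries the values were 2.04 and 2.67, with 1 library left in PDX1 KO ISL1 OE. Replicate 2 on its own was thus also above all 3 BFP libraries for these 3 genes.

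MT1H (0.0734, 0.11 and 0.04 CPM, then 0.462 and 1.38 CPM) and MT1X (2.13, 2.01 and 1.10 CPM, then 3.57 and 11.9 CPM) rose by 3.55 ± 0.81 (adjusted p = 0.00951) and 2.14 ± 0.50 (adjusted p = 0.0117). Both calls were lost without replicate 4 (2.61 and 1.06 on the log2 scale; adjusted p = 0.158 and 0.368), and that of MT1X also without PDX1 KO BFP replicate 3. SLC39A4 rose by 1.24 ± 0.38 (adjusted p = 0.0371), from 8.30 to 10.1 CPM over the BFP libraries to 9.44 and 34.2 CPM. The groups overlapped, the call was lost with the replicate block kept to ISL1 KO and PAX6 KO (adjusted p = 0.0584), and without replicate 4 the change was 0.07 (adjusted p = 0.96). MTF1 fell by 0.69 ± 0.19 (adjusted p = 0.0254), from 29.8, 35.5 and 35.4 CPM to 24.5 and 16.9 CPM, and by 0.42 without replicate 4, no longer called (adjusted p = 0.357); it was also lost without PDX1 KO BFP replicate 2 or 3, as was the SLC30A4 call.

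SLC39A5 rose from 20.5, 10.8 and 12.1 CPM to 34.1 and 77.7 CPM (1.95 ± 0.39, adjusted p = 0.0049), beside 35.5 to 66.7 CPM in the 4 WT libraries. Without replicate 4 alone the call was lost. Without both outlying libraries the rise was 1.26, with 1 library left in PDX1 KO ISL1 OE. The vector effect differed from that in WT for 2 members, where 1.37% of all genes were called. For MT1G the difference, vector effect in PDX1 KO minus vector effect in WT, was 5.24 ± 0.82 (adjusted p = 0.00621), and for SLC39A5 2.73 ± 0.59 (adjusted p = 0.0298). The corresponding differences for ISL1 KO and PAX6 KO were called for 0 members (0.00451% and 0% of all genes called; 1 and 0 members at an unadjusted p under 0.05 with edgeR, 0 and 0 with DESeq2). The liver marker sum was 5127 to 5837 CPM in PDX1 KO BFP, and with the vector 8266 CPM in replicate 2 and 34180 CPM in replicate 4. None of the markers was at 0, and 10 of 12 were called higher, where 9.09% of all genes were. The part of this sum in these rises was not tested. With the ISL1 vector on both sides, PDX1 KO had 1 member lower than WT, SLC30A8, and 0 higher (0.78% of all genes called). Between knockouts with BFP, 0 members differed between PAX6 KO and ISL1 KO (2.78% of all genes called; 3 at an unadjusted p under 0.05 with edgeR, 1 with DESeq2), 1 rose in PDX1 KO against ISL1 KO (5.71%) and 2 against PAX6 KO (3.62%). Without the 2 outlying libraries the vector comparisons had 5 members called in PDX1 KO (11.2% of all genes), none in PAX6 KO or WT (6.02% and 1.69%) and 2 in ISL1 KO (5.92%), and the differences from the WT vector effect 0, 0 and 3 for ISL1 KO, PAX6 KO and PDX1 KO (0.313%, 0.0565% and 3.28%). The third member in PDX1 KO was SLC39A7, at 0.83 ± 0.18 (adjusted p = 0.0157). Knockouts against WT with the ISL1 vector then had 12, 6 and 1 (23.7%, 14.5% and 7.9%), and the knockouts against each other 3, 5 and 11 (10.7%, 26.1% and 20.1%).

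Other genes of zinc biology gave single calls. GPR39, a zinc-sensing receptor, had 40.8 and 40.2 CPM in WT BFP and 11.1 to 18.4 CPM in all 9 knockout BFP libraries. It fell by 1.86 ± 0.29 (adjusted p = 0.00105) in ISL1 KO, by 1.40 ± 0.29 (adjusted p = 0.00913) in PAX6 KO and by 1.35 ± 0.29 (adjusted p = 0.0062) in PDX1 KO. TMEM163, a zinc transporter of vesicles, rose in PDX1 KO BFP, from 2.48 and 4.59 CPM in WT to 17.2, 21.5 and 21.6 CPM (2.51 ± 0.59, adjusted p = 0.0106); it is the only gene of the 15 tested in this list that rose in any knockout with BFP. Of those 15 genes 1, 1 and 2 fell in ISL1 KO, PAX6 KO and PDX1 KO, where 4.48%, 4.25% and 6.84% of all genes fell. MT1B, of the same gene cluster but not among the 34, was also higher with the ISL1 vector in PDX1 KO. It had 0.183, 0.11 and 0.1 CPM in PDX1 KO BFP and 5.49 and 3.22 CPM in PDX1 KO ISL1 OE (5.03 ± 0.56, edgeR adjusted p = 7.60e-05). The sequence that MT1B shares with other genes was not counted.

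Genes of oxidative and metal stress, which share inducers with the metallothioneins, included NQO1, a quinone reductase. NQO1 had 139 and 146 CPM in WT BFP and 23.96 to 62.2 CPM in the knockout BFP libraries. It fell by 1.44 ± 0.31, 2.18 ± 0.31 and 2.42 ± 0.31 in ISL1 KO, PAX6 KO and PDX1 KO (adjusted p = 0.00912, 0.000687 and 0.000274). With the ISL1 vector in PDX1 KO it rose to 106 and 275 CPM (2.83 ± 0.31, adjusted p = 7.60e-05). Over the 10 genes of that list 1, 2 and 3 fell and 0 rose in the 3 knockouts, and 3 rose and 1 fell with the vector in PDX1 KO. Of all tested genes 4.48%, 4.25% and 6.84% fell and 2.05%, 2.41% and 4.56% rose in the 3 knockouts. With the vector in PDX1 KO 9.09% rose and 5.34% fell. The knockout shares apply to the next 2 lists too. Copper genes gave 0, 0 and 1 lower of 10 in the knockouts; the 1 was SLC31A1, the copper importer (−1.14 ± 0.22, adjusted p = 0.0031, in PDX1 KO). Of 6 glucocorticoid response genes 0, 0 and 1 were lower and 0, 1 and 0 higher.

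The 2 libraries that stood apart did so for most of the set. The share of all tested genes outside the range of the other libraries was not counted. Standing apart is therefore not shown to be particular to these genes. PAX6 KO ISL1 OE replicate 3 was below the range of the other 19 libraries for 13 of the 30 tested members and above it for 5, and PDX1 KO ISL1 OE replicate 4 for 12 and 10. They shared 10 of the genes below and 5 of those above. SLC39A14 was at 33.2 and 41.7 CPM in them, against 148 to 284 CPM elsewhere, and SLC30A7 at 36.7 and 35.0 CPM against 68.4 to 117.2 CPM. MT1X was at 9.69 and 11.9 CPM, against 1.10 to 3.81 CPM elsewhere, and SLC39A4 at 13.4 and 34.2 CPM against 4.91 to 10.9 CPM. SLC30A8 was within the range of the others in both. PDX1 KO ISL1 OE replicate 4 also had INS at 44880 CPM, against 324 CPM in replicate 2 of the same group, and GCG at 94730 CPM against 10840 CPM, so its group mean describes neither library.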

How the data were processed

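Bulk RNA was sequenced from 21 libraries in 8 groups. Per the labels, the kits were Quick-RNA (Zymo Research), SMART-Seq v4 and KAPA EvoPrep; no molecular identifiers or strand are named. The submitters' processing notes name STAR 1.6.1 and GRCh38; no source used here gives the counting program. The authors deposited estimated counts per gene and lane, and TPM per gene and per transcript, scaled for transcript length within each lane. Counts were summed over 4 lanes and rounded; TPM were averaged over lanes. Of 12 further columns, of 3 libraries absent from the deposited list of runs, none was used, and 1 column printed more than once in the header was used once. Symbols came from GENCODE 29 (34390 of 38592 genes) and a gene name table (38568).

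Genes were tested with edgeR 4.0.16 (R 4.3.3): TMM factors (0.707 to 1.15), filterByExpr (22184 genes), 8 group means, common dispersion 0.114, quasi-likelihood F test, Benjamini-Hochberg adjustment over all genes, threshold 0.05. CPM are TMM-scaled. Without the 2 outlying libraries 22990 genes were tested and the dispersion was 0.0344. The script was tested on simulated data. The alternatives used DESeq2 1.42.0, library size scaling, no filter, only the groups compared, replicate blocks, lane sets and leaving out each library. Replicate numbers paired the libraries within ISL1 KO (correlations of deviations 0.431, 0.304 and 0.641) and within PAX6 KO (0.264, 0.49 and 0.546), as found in the data. In the other comparisons the correlations ran from −0.496 to 0.508. With BFP they were positive at both shared numbers in PDX1 KO against WT (0.492 and 0.179) and ISL1 KO against WT (0.174 and 0.262). The members, the lists and the grouping into families were chosen with earlier results of these data known. All 34 genes are accounted for; per-library values are given for members called in at least 1 comparison, for metallothioneins and for SLC30A8, and other lists are given by counts with up to 4 called genes.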

Additional observations from a re-analysis of the deposited data

Results flagged for a closer look

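The effect of the ISL1 vector differed between PDX1 KO and WT for 2 members by a test of the difference itself. For MT1G the vector effect in PDX1 KO minus that in WT was 5.24 ± 0.82 (log2, SE; edgeR adjusted p = 0.00621), with both PDX1 KO ISL1 OE libraries above all 3 PDX1 KO BFP libraries and no such rise in WT. Without either WT ISL1 OE library it did not pass (adjusted p up to 0.0979). For SLC39A5 the difference was 2.73 ± 0.59 (adjusted p = 0.0298); it was kept in 2 of 9 fits without 1 library. Without the 2 outlying libraries the differences were 4.46 and 2.04. That fit leaves 1 library in PDX1 KO ISL1 OE, assumed to vary like the other groups, so only the sizes are given.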

How the results depend on the processing

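Over 32 calls of single members no direction turned under any alternative. Among uncalled members, the vector effect of SLC39A7 in PDX1 KO turned to −0.029 with library size scaling and ran from −0.249 to 0.446 over the fits without 1 library, and SLC30A2 ran from −3.568 to 0.086 in ISL1 KO and from −3.256 to 0.398 in PDX1 KO with BFP, positive only without WT BFP replicate 1. All 32 kept the call with DESeq2. Without the 2 outlying libraries 5 calls ended, each for the vector in PDX1 KO, whose vector group then held 1 library. Library size scaling ended 9 calls, no filter 7 and the fit of the 2 groups alone 12 of 30; beside those named above these were MT1G in ISL1 KO (adjusted p = 0.0628 and 0.0598 under the first 2), SLC39A5 in PAX6 KO (0.1 and 0.0515), SLC39A4 for the vector in PDX1 KO with library size scaling (0.0718), MTF1 for the vector in PDX1 KO (0.0568 and 0.0663), SLC30A4 in PDX1 KO against PAX6 KO (0.197 and 0.104), and the SLC39A5 difference with library size scaling (0.0826).

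Counts of members called follow, each with the share of all genes called in the same fit. DESeq2 gave 7 (11.6%) and 8 (16.7%) for ISL1 KO and PDX1 KO with BFP, 5 (9.06%), 5 (8.77%) and 2 (3.33%) for ISL1 KO, PAX6 KO and PDX1 KO with the ISL1 vector, and 1 (1.87%) and 1 (2.28%) for the vector in ISL1 KO and in PAX6 KO. It gave 1 (4.88%), 3 (10.7%) and 4 (7.29%) for PAX6 KO against ISL1 KO, PDX1 KO against ISL1 KO and PDX1 KO against PAX6 KO, and 5 (5.57%) for the difference in vector effect of PDX1 KO. Without the 2 outlying libraries, with the shares given above, the counts were 15, 14 and 14 with BFP. They were 12 and 6 for ISL1 KO and PAX6 KO with the ISL1 vector, 2 for the vector in ISL1 KO, and 3, 5 and 11 between knockouts. With only the groups compared they were 12 (28.2%), 10 (24.3%) and 14 (33.3%) with BFP, 15 (27.7%), 1 (0.174%) and 0 (0%) with the ISL1 vector, 1 (1.43%), 2 (7.31%) and 0 (0%) for the vector in WT, ISL1 KO and PDX1 KO, and 2 (7.91%), 5 (26.3%) and 7 (15.5%) between knockouts. Library size scaling gave 3 (5.66%) for PAX6 KO with BFP, 1 (3.27%) for PDX1 KO against PAX6 KO and 1 (0.771%) for the difference in PDX1 KO. Without a filter ISL1 KO and PAX6 KO with BFP had 1 (3.4%) and 3 (3.49%), and PDX1 KO against PAX6 KO had 1 (1.92%); with lane set as a term, added after seeing the data, that comparison had 1 (3.14%). A replicate block gave 4 (14.3%) and 9 (20.7%) for ISL1 KO and PDX1 KO with BFP, 1 (2.15%) for the vector in ISL1 KO, and 3 (12.8%) and 4 (9.12%) for PDX1 KO against ISL1 KO and PAX6 KO. A replicate block kept to the 2 paired genotypes (ISL1 KO, PAX6 KO), also added later, gave 1 (6.68%) for ISL1 KO with BFP and 1 (3.59%) for PDX1 KO against PAX6 KO; the 4 calls it ended were MT1G in ISL1 KO, SLC39A11 in PAX6 KO with the ISL1 vector, SLC39A4 for the vector in PDX1 KO and SLC30A4 in PDX1 KO against PAX6 KO (adjusted p = 0.051 to 0.0584). The block could not be fitted where groups share fewer than 2 numbers.

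Leaving out 1 library at a time gave 1 to 1, 1 to 7 and 2 to 4 members for ISL1 KO, PAX6 KO and PDX1 KO with BFP, 1 to 2, 2 to 4 and 0 to 16 with the ISL1 vector, and 0 to 0 for the vector in WT, ISL1 KO and PAX6 KO. For the vector in PDX1 KO it gave 1 to 24, and for its difference from WT 0 to 18. The 16, 24 and 18 are all from the fit without PDX1 KO ISL1 OE replicate 2, which called 37.5%, 46.8% and 35.7% of all genes and leaves the outlying replicate 4 as its group; without replicate 4 the counts were 0, 1 and 1 (2.73%, 3.1% and 0.582%). Between knockouts it gave 0 to 0, 1 to 1 and 1 to 1 (1.45% to 2.24%, 2.39% to 4.41% and 1.69% to 2.47% of all genes). Fits without a WT library leave 1 library in that group. Without a knockout library the BFP comparisons gave 1 (2.72% to 4.22%), 2 to 7 (2.42% to 4.62%) and 3 to 4 (6.36% to 8.04%). With the ISL1 vector ISL1 KO and PAX6 KO gave 1 to 2 (1.76% to 1.97%) and 3 to 4 (3.35% to 4.82%) in such fits. For the vector in ISL1 KO and PAX6 KO the shares were 0.0904% to 0.244% and 0.0766% to 0.584%. Genes at a few counts, SLC30A2 and MT1H among them, limit what a fold change can show.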
